A study of Mus musculus with 24 samples.

Results

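R1 cells are a mouse embryonic stem (ES) cell line. The arrays described here hold RNA of R1 cells that carried shCdk8-1, a lentiviral short hairpin against Cdk8, and were collected 13 or 8 days after infection. They were chosen by their titles, 3 arrays for each day, which makes 6 of the 24 arrays of the series. Another 2 infected lines were measured on the same days and serve for comparison, with 3 arrays a day each: cells with shCdk8-2, the other hairpin against Cdk8, and cells with shNTC, a non-targeting hairpin. Cells infected with either of 2 hairpins against Med12 were measured on day 13 and enter the shared estimate of the spread alone. Every group was infected with lentivirus, and shNTC cells give the change over the same days without a hairpin against Cdk8. The medium and any feeder layer are not given in the sources used here. Replicates are labelled biological with no word on separate infections or cultures, and p-values therefore measure no more than the spread among these arrays.

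Cdk8 is the cyclin-dependent kinase of Mediator, the complex that carries signals from transcription factors to RNA polymerase II. With cyclin C, Med12 and Med13 it forms a module that binds Mediator reversibly and can raise or lower transcription. ES cells keep their state through factors such as Oct4 (the product of Pou5f1), Sox2 and Klf4, and a culture usually holds a few cells that drift towards endoderm, towards a state like the 2-cell embryo, or towards later lineages.

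Values are log2 ratios of the cells' RNA (Cy5) to a universal mouse reference RNA (Cy3), a mixture of mouse cell lines, so 0 means the level of the reference. Fold changes are differences of log2 ratios, day 13 minus day 8, with the standard error (SE) of the fit. Genes are named as called where the p-value, adjusted over all 22394 genes tested, was under 0.05. Between 67.8% and 76.1% of the spots on the 6 arrays were well above background, and none was saturated. Replicates of a day correlated across genes with r of at least 0.988, and no day 13 array reached an r over 0.969 with a day 8 array. The day 8 replicate 1 array needed care. With the background model fitted on all spots, its log2 ratios had a slope of 0.778 on those of the other day 8 replicates, and with the lowest 0.5% of spots left out of that fit the slope was 0.966; the values below use the second fit. Both days were present on 2 slides, but every day 13 array lay at position 3 of its slide and every day 8 array at position 1, so position and day cannot be told apart. The 8 ES cell markers tested were well above background on all 6 arrays, with a mean log2 ratio of 5.75 to 5.90 on day 13 arrays and 5.80 to 6.01 on day 8 arrays.

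The first question was whether the target was still reduced. Cdk8 stood at -1.38, -1.55 and -1.55 on the day 13 arrays, against -1.49, -1.34 and -1.06 on the day 8 arrays. In shNTC cells it averaged -0.53 ± 0.07 on day 13 and -0.51 ± 0.08 on day 8 (SD, n = 3 each), so all 6 shCdk8-1 arrays lay below all 6 shNTC arrays. Between the days the groups overlapped, and Cdk8 differed by -0.20 (SE 0.08, adjusted p = 0.082), which was not called. Blocking on slide gave -0.22 (adjusted p = 0.042), and without day 8 replicate 1 the value was -0.29 (adjusted p = 0.0088). Cdk19, the paralog that can take the place of Cdk8, was called lower by -0.31 (adjusted p = 7.6e-04), and Med12, which activates the kinase, by -0.28 (adjusted p = 0.0079). Cyclin C (Ccnc) differed by -0.08 and Med13l, a paralog of Med13, by -0.11, neither of them called. Further probes gave -0.32 for Cdk8, -0.42 for Med12 and 0.27 for Ccnc. Cdk19 also fell in shNTC cells, by 0.24 (adjusted p = 0.0091). Of the 5 tested genes of the module 0 were called higher and 2 lower, where 14.6% and 15.8% of all genes were. Neither of the 2 calls was made with median centring in place of loess (-0.25 for Cdk19 and -0.18 for Med12).

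Between day 8 and day 13 a large share of the transcriptome moved, mostly by small amounts. Of 22394 genes 6814 were called (30.4%), 3275 higher (14.6%) and 3539 lower (15.8%), and 347 of them changed at least 2-fold, 180 upward and 167 downward. The arrays of the days did not overlap for 39.6% of all genes, 19.5% higher and 20.1% lower on day 13. The median fold change of all genes was 0.004 with an SD of 0.30. Of the calls 48.1% were higher. Median centring instead of loess gave 3979 calls, of which 58.0% were higher. On the 2 slides that held both days, 6779 of the 6814 called genes differed in the fitted direction on each slide. The arrays on these slides also gave the calls, so this is not a separate test.

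The genes that rose most include the contractile genes Acta1, Tagln and Cnn1, the interferon-induced GTPase genes Gbp2b and Gbp2, and Cdx2, a factor of the trophectoderm, the outer layer of the blastocyst. The 14 highest were Acta1 (2.87), Gbp2b (2.60), Tagln (2.49), Anxa3 (2.45), Mab21l4 (2.42), Prss23 (2.30), Cnn1 (2.19), Cldn7 (2.15), Gbp2 (2.11), 9130008F23Rik (2.10), Cdx2 (2.07), Thbs1 (2.06), Wnt4 (2.02) and Arl4c (2.01), with SEs of 0.04 to 0.13. The genes that fell most include the endoderm factors Foxa2 and Gata6 and the 2-cell-like genes Zfp352 and Tcstv3. The 14 lowest were Aqp8 (-2.70), Srgn (-2.30), Hkdc1 (-1.97), Lama1 (-1.95), Kcnq1ot1 (-1.80), Glipr1 (-1.72), Foxa2 (-1.69), Hs3st1 (-1.62), Ctsh (-1.53), Bmper (-1.51), Gata6 (-1.51), Zfp352 (-1.44), Gm11487 (-1.44) and Tcstv3 (-1.43). The highest and lowest genes were taken among calls with a gene symbol whose arrays did not overlap. The gap between the days in the plot of single arrays was therefore a condition of choosing them. Srgn, which encodes the granule proteoglycan serglycin, was at -3.99, -3.26 and -1.32 on day 13 against -0.93, -0.32 and -0.44 on day 8. Its day 13 arrays were far apart, its SE was 0.86 and its adjusted p 0.048. The call was lost under 13 of 18 alternatives. Among these were slide as a block (-1.05, adjusted p = 0.14) and leaving out any single array of the 6 except day 13 replicate 3. For 8 of the 28 genes a further probe was measured, and 9 of these 10 further probes had the sign of the probe used. Prss23 (0.07), Gata6 (-0.11 and 0.04), Thbs1 (1.08 and 0.75), Arl4c (0.87) and Bmper (-0.81) had further probes with smaller changes.

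**Figure D1:**
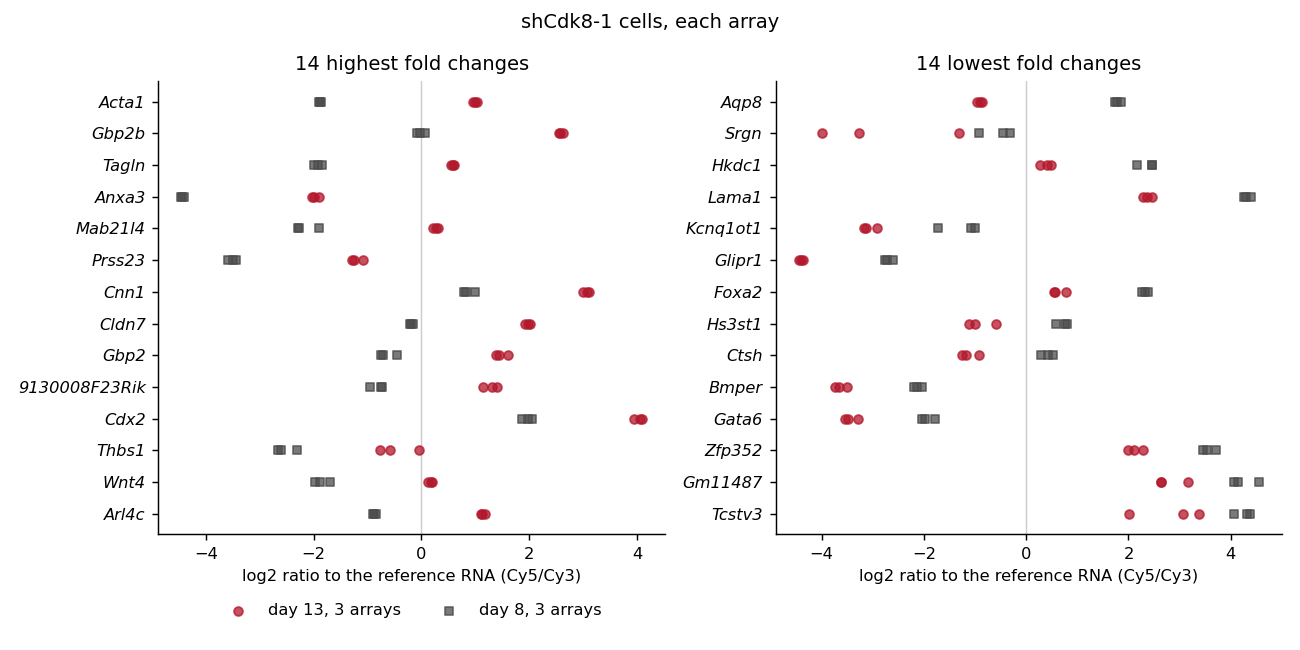
Log2 ratio to the reference RNA on each array for the 14 genes with the highest (left panel) and the 14 with the lowest fold change (right panel) in shCdk8-1 cells; red circles are the 3 day 13 arrays and grey squares the 3 day 8 arrays. Acta1 lies between 0.95 and 1.03 on day 13 and between -1.90 and -1.86 on day 8, while the day 13 arrays of Srgn spread from -3.99 to -1.32.

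The list of contractile, matrix and adhesion genes had the highest median fold change of the lists examined. Serum response factor (SRF) switches on genes of actin and its partners when actin filaments form, and the coactivators YAP and TAZ, acting through TEAD factors, respond to cell shape and adhesion. Of 32 tested genes of a list responsive to these factors, 29 were called higher and 1 lower, where 14.6% and 15.8% of all genes were, and the median fold change was 0.77, against 0.004 for all genes. The list's mean log2 ratio was -0.90 to -0.80 on the day 13 arrays and -1.79 to -1.76 on the day 8 arrays. Without day 8 replicate 1 the counts were 27 and 1.

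Acta1, which encodes the actin of skeletal muscle, was at 1.03, 0.99 and 0.95 on day 13, against -1.88, -1.86 and -1.90 on day 8 (2.87, SE 0.07, adjusted p = 4.2e-18). Tagln, which encodes the smooth muscle protein transgelin that binds actin, was at 0.60, 0.58 and 0.54 on day 13, against -1.84, -1.99 and -1.92 on day 8 (2.49, SE 0.06, adjusted p = 4.5e-18). Replicates of a day lay close together for both genes, and the days were far apart. Cnn1, which encodes calponin, an actin-bound protein of smooth muscle, averaged 3.06 ± 0.05 on day 13 and 0.87 ± 0.11 on day 8 (SD, n = 3 each; 2.19, SE 0.07, adjusted p = 4.7e-16). Thbs1, which encodes the matrix protein thrombospondin 1, was at -0.04, -0.77 and -0.58 on day 13, against -2.60, -2.65 and -2.31 on day 8 (2.06, SE 0.12, adjusted p = 2.5e-11). Its arrays spread more widely than those of the actin genes, and its further probes gave 1.08 and 0.75. The smooth muscle actin gene Acta2 was at -1.54, -1.50 and -1.51 on day 13, against -2.94, -3.01 and -3.07 on day 8 (1.49, SE 0.06, adjusted p = 9.2e-15), with 0.67 and 1.54 from further probes. The cardiac actin gene Actc1 was at -1.01, -0.85 and -0.96 on day 13, against -2.31, -2.50 and -2.63 on day 8 (1.54, SE 0.08, adjusted p = 1.0e-12). For Acta1, Tagln, Cnn1 and Thbs1 the gap between the days was a condition of choosing them. Every day 13 array of Acta2 and Actc1 also lay above every day 8 array, as for 19.5% of all genes. Chosen after their values were seen, the members that were not called higher were Yap1 itself (0.08), Anln (-0.03) and Ankrd1, which was called lower (-0.46), although it is a common readout of YAP.

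SRF binds the CArG box, a pair of C, a run of A and T, and a pair of G. The RefSeq promoter table (assembly GRCm38.p6) held windows, from 250 bases before to 50 after a transcription start, for 24 of the 29 genes of the list called higher. A gene was counted where any of its windows held the motif. A CArG box, read on both strands since it is the same motif on each, was found in 6 of the 24 genes (25%). The share was 1.62% of the 10988 tested genes that had a window. The TEAD letters GGAATG, on either strand, were in 13 of the 24 (54.2%), against 14.8% of these tested genes. Members of the list are known targets of these factors, so these shares describe the list. The 250 bases before the start are shown for the 4 members with a box and the highest fold changes, with the CArG box in capitals: Acta1 on the minus strand of chr8:123894776-123895025, Actc1 on the minus strand of chr2:114052876-114053125, Cnn2 on the plus strand of chr10:79988350-79988599 and Fhl2 on the minus strand of chr1:43163962-43164211.
Acta1: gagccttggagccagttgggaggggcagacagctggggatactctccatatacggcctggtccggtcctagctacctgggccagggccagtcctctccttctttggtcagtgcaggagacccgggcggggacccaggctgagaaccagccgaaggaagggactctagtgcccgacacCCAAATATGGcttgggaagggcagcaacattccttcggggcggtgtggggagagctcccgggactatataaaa
Actc1: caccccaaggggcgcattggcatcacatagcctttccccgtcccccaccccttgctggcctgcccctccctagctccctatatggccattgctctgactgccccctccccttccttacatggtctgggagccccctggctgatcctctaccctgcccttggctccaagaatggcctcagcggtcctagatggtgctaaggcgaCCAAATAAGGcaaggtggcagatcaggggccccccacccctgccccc
Cnn2: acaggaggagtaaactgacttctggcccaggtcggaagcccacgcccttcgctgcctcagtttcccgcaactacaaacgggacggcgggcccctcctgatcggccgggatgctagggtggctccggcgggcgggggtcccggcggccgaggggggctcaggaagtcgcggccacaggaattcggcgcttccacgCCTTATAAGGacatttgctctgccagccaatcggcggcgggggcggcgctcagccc
Fhl2: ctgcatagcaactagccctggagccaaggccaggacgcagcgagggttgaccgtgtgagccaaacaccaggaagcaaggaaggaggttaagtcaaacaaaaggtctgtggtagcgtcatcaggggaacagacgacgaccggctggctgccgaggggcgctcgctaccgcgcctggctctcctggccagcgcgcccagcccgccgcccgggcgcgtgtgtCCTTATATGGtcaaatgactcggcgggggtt
The box began 73 bases before the start in Acta1, 47 in Actc1, 56 in Cnn2 and 31 in Fhl2. Cnn2, which encodes another calponin, rose by 1.34 and Fhl2, a LIM protein that binds SRF, by 0.99.

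Markers of fibroblasts, which ES cultures may hold as feeder cells, were examined beside these genes. Of 37 tested, 19 were called higher and 3 lower (median 0.33), where 14.6% and 15.8% of all genes were. In shNTC cells the counts were 9 and 12 (median -0.19), where 11.6% and 12.3% of all genes were called. With the background model of all spots 13 were higher and 4 lower (median 0.12) in shCdk8-1 cells. Their mean log2 ratio was -3.36 to -3.19 on day 13 arrays and -3.80 to -3.57 on day 8 arrays, far below the reference. All 37 were well above background on every day 13 array and 34 on every day 8 array. The 2 lists share 7 members, Tagln, Cnn1, Thbs1 and Acta2 among them. Of the 30 fibroblast markers that are not on the SRF and YAP list, 12 were called higher and 3 lower, with a median of 0.14, and of the 25 genes that are on the SRF and YAP list alone, 22 and 1, with a median of 0.71. The defining collagens and fibronectin, taken after their values were seen, did not move together: Col1a1 rose by 0.83, Col1a2 (-0.28) and Col3a1 (0.16) were not called, and Fn1 fell by 0.65. The part of these cells in the contractile genes was not tested. In RNA of whole cultures, more cells of a type and more RNA per cell cannot be told apart.

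Several genes of epithelia and trophectoderm rose as well. Cdx2, a homeobox factor of the trophectoderm and of the posterior embryo, was at 4.09, 3.94 and 4.06 on day 13, against 1.97, 1.86 and 2.05 on day 8 (2.07, SE 0.13, adjusted p = 1.0e-10). The keratins of simple epithelia followed, with Krt8 at -0.81, -0.70 and -0.69 on day 13 against -2.60, -2.52 and -2.66 on day 8 (1.86, SE 0.06, adjusted p = 4.7e-16), Krt18 at 1.49 and Krt7 at 1.28. Cldn7, which encodes a claudin of tight junctions, was at 2.01, 1.92 and 1.97 on day 13 against -0.20, -0.16 and -0.19 on day 8 (2.15, SE 0.07, adjusted p = 4.7e-16). Every day 13 array of Krt8 was above every day 8 array, as for 19.5% of all genes. For Cdx2 and Cldn7 that was a condition of choosing them. Of 17 trophectoderm markers 8 were called higher and 0 lower (median 0.17), where 14.6% and 15.8% of all genes were. Without day 8 replicate 1 the counts were 7 and 0.

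Interferon-induced genes rose in part. Gbp2b, a guanylate-binding GTPase that acts against intracellular microbes, was at 2.63, 2.56 and 2.57 on day 13, against -0.08, -0.02 and 0.07 on day 8 (2.60, SE 0.06, adjusted p = 4.5e-18). Its relatives Gbp2 (2.11) and Gbp3 (1.84) and the chemokine gene Cxcl10 (1.68) also rose. Among the 40 genes of the list 20 were called higher and 4 lower (median 0.23), where 14.6% and 15.8% of all genes were. With the background model of all spots the counts were 16 and 4 (median 0.08). Immediate early and ERK feedback genes had 20 of 36 called higher and 2 lower (median 0.32), against the same shares of all genes. Phlda1 rose by 1.55, Jun, a subunit of AP-1, by 1.16, Maff by 1.10 and the AP-1 subunit gene Fosl2 by 1.17, for which a further probe gave 0.20.

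Several genes of endoderm, among them genes of primitive endoderm, the layer that lines the blastocoel, fell. Foxa2, a forkhead factor of endoderm, was at 0.78, 0.55 and 0.55 on day 13, against 2.39, 2.32 and 2.26 on day 8 (-1.69, SE 0.06, adjusted p = 6.5e-15). Gata6, a zinc finger factor that directs primitive endoderm, was at -3.49, -3.29 and -3.54 on day 13, against -1.78, -1.99 and -2.03 on day 8 (-1.51, SE 0.08, adjusted p = 2.4e-12), although 2 further probes gave -0.11 and 0.04. Lama1, a laminin chain of basement membranes, was at 2.37, 2.29 and 2.46 on day 13, against 4.27, 4.40 and 4.30 on day 8 (-1.95, SE 0.12, adjusted p = 7.1e-11). For all 3 genes every day 13 array was lower than every day 8 array, which was a condition of choosing them. The water channel gene Aqp8 was at -0.97, -0.86 and -0.91 on day 13, against 1.85, 1.73 and 1.77 on day 8 (-2.70, SE 0.08, adjusted p = 4.6e-16). Of 34 endoderm genes 15 were called lower and 7 higher, where 15.8% and 14.6% of all genes were, and the median was -0.07. The 7 that rose include Krt8 and Krt18, which trophectoderm shares, and F3, the gene of tissue factor, which is also on the SRF and YAP list. The list therefore split into members that rose and members that fell, and its mean log2 ratio was -0.71 to -0.70 on day 13 arrays and -0.52 to -0.48 on day 8 arrays.

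**Figure D2:**
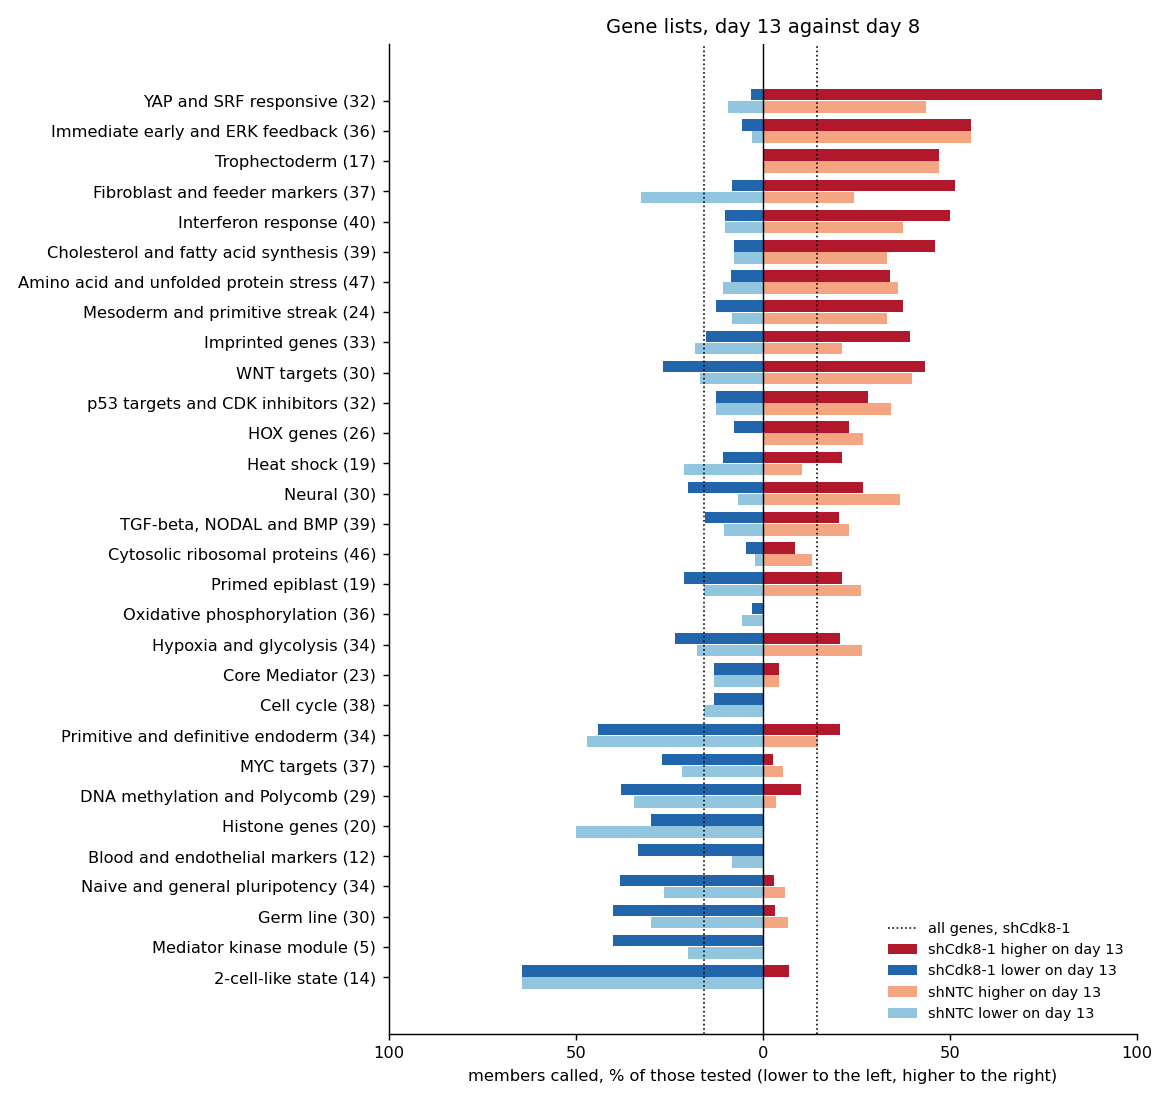
Share of the tested members of each gene list (number tested in brackets) called higher (bars to the right) or lower (bars to the left) on day 13 than on day 8, in shCdk8-1 cells (dark, upper bar) and in shNTC cells (light, lower bar); dotted lines mark the shares over all genes in shCdk8-1 cells, 14.6% higher and 15.8% lower (11.6% and 12.3% in shNTC cells, not drawn). The SRF and YAP list has 29 of 32 members higher in shCdk8-1 cells and 14 of 32 in shNTC cells, and the 2-cell-like list has 9 of 14 lower in both.

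Genes of the 2-cell-like state, a rare state of ES cells that expresses transcripts of the 2-cell embryo, had the lowest median of any list. Of 14 tested, 9 were called lower and 1 higher (median -0.83), where 15.8% and 14.6% of all genes were. Zscan4c, a zinc finger gene that marks the state, was at 6.62, 6.04 and 6.21 on day 13, against 7.29, 7.36 and 7.94 on day 8 (-1.24, SE 0.17, adjusted p = 7.2e-06). Zfp352 was at 2.28, 2.11 and 1.99 on day 13, against 3.47, 3.53 and 3.71 on day 8 (-1.44, SE 0.10, adjusted p = 4.3e-10). Every day 13 array of Zscan4c was lower than every day 8 array, as for 20.1% of all genes. For Zfp352 that was a condition of choosing it. Tcstv3 (-1.43) and Usp17la (-1.23) fell too, and as these genes belong to families of near-identical copies, a probe may read several of them. The 1 member that was called higher, named after its value was seen, was Pramel7 (0.40).

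Of 30 germ line genes 12 were called lower and 1 higher (median -0.20), where 15.8% and 14.6% of all genes were. Dazl, an RNA-binding protein of germ cells, was at 2.44, 2.61 and 2.39 on day 13, against 3.60, 3.68 and 3.47 on day 8 (-1.11, SE 0.10, adjusted p = 2.8e-08), with -0.38 from a further probe. Hormad1, a protein of meiotic chromosome axes, fell by 1.37, with -0.78 from a further probe, Rpl39l, a ribosomal protein gene, by 1.03 and Tex19.1 by 0.92. The count of lower genes depended on the setting, with 6 under the background model of all spots, 7 in Feature Extraction's own ratios, 14 without day 8 replicate 1 and 17 with Cy5 alone. Dazl was not called under the background model of all spots or in Feature Extraction's ratios (-0.55, adjusted p = 0.29, and -1.34, adjusted p = 0.091).

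Among pluripotency factors the core genes were not called and some naive factors fell. Pou5f1 was at 6.46, 6.27 and 6.33 on day 13, against 5.66, 5.71 and 6.16 on day 8 (0.51, SE 0.20, adjusted p = 0.053), which was not called, although the arrays did not overlap and the adjusted p was 0.0063 with slide as a block (0.55) and 0.021 without day 8 replicate 3 (0.67). Sox2 (-0.14), Esrrb (0.00), Dppa5a (-0.02), Tdgf1 (-0.12) and Utf1 (-0.08) were not called. Klf4, a Kruppel-like factor of naive cells, was at 2.04, 2.01 and 1.95 on day 13, against 2.46, 2.42 and 2.38 on day 8 (-0.42, SE 0.05, adjusted p = 2.6e-06). Zfp42, whose product Rex1 marks naive cells, was at 8.85, 8.77 and 8.61 on day 13, against 9.15, 9.10 and 9.25 on day 8 (-0.43, SE 0.11, adjusted p = 0.0045). Both calls depended on the processing: Klf4 was not called with median centring (-0.26, adjusted p = 0.22), and Zfp42 stood at 0.06 with the background model of all spots and -0.06 in Feature Extraction's ratios. Tbx3, a T-box factor that can drive primitive endoderm, was at 1.53, 1.36 and 1.29 on day 13, against 2.47, 2.42 and 2.32 on day 8 (-1.01, SE 0.07, adjusted p = 6.0e-10). Of 34 genes of naive and general pluripotency 13 were called lower and 1 higher (median -0.14), where 15.8% and 14.6% of all genes were. Their median was 0.04 with the background model of all spots. In the primed epiblast list of 19 genes, 4 were called higher and 4 lower, against the same shares of all genes. Fgf5, a growth factor of the epiblast, rose by 0.97, while Otx2 (-0.94), Foxd3 (-0.82) and Dnmt3a (-0.75) fell. Fgf5 was not called in Feature Extraction's ratios (0.96, adjusted p = 0.13), nor Otx2 (-0.46, adjusted p = 0.30) and Foxd3 (-0.37, adjusted p = 0.33) with the background model of all spots. In shNTC cells Fgf5 rose by 1.70, Foxd3 (-0.39) and Dnmt3a (-0.66) were called lower, and Otx2 (-0.23) was not called.

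**Figure D3:**
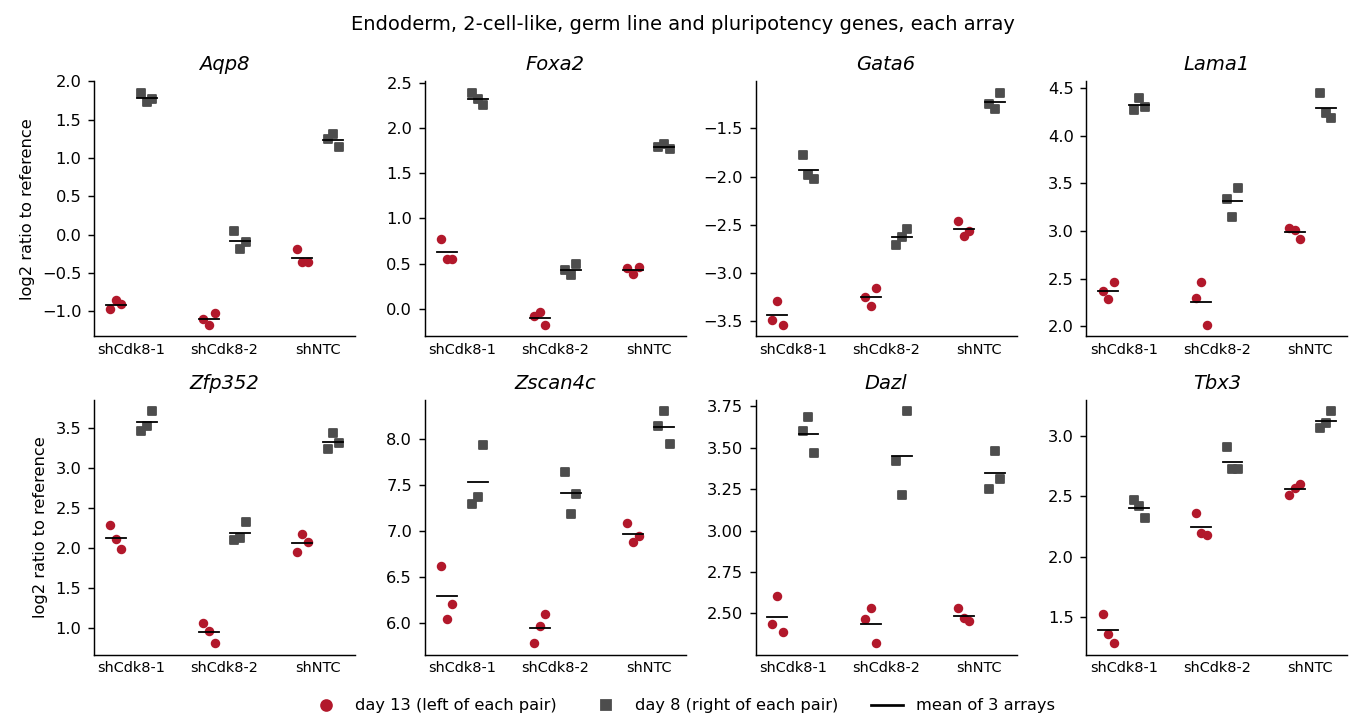
Log2 ratio to the reference RNA on each array for 8 genes of the endoderm, 2-cell-like, germ line and pluripotency lists; in each panel the pairs are shCdk8-1, shCdk8-2 and shNTC cells, with day 13 (red circles) left of day 8 (grey squares) and a line at the mean of 3 arrays. All 8 genes are lower on day 13 in shCdk8-1 cells, and Aqp8 and Foxa2 have their highest levels in shCdk8-1 cells on day 8.

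Genes of WNT signalling and of the streak were mixed. Sp5, a direct target of WNT and beta-catenin, rose by 1.40, the ligand gene Wnt3 by 1.05 and Fgf8 by 0.92. The Wnt3 call was lost under 2 of 18 alternatives (highest adjusted p = 0.12). Wnt3 also rose in shNTC cells (1.40) and in shCdk8-2 cells (2.02). Of 30 WNT targets 13 were called higher and 8 lower (median 0.13), and of 24 mesoderm and streak genes 9 higher and 3 lower (median 0.16). For these and the next 2 lists, the shares over all genes were 14.6% higher and 15.8% lower. In the neural list, 8 of 30 were called higher and 6 lower (median 0.02), with the intermediate filament gene Nes at 1.68 and the Notch ligand gene Dll1 at -0.99. In the imprinted list, 13 of 33 were called higher and 5 lower (median 0.09). The growth factor gene Igf2 rose by 1.37 and Mest by 1.13, and Kcnq1ot1, a noncoding RNA antisense to Kcnq1 that silences its neighbours on the paternal chromosome, averaged -3.07 ± 0.14 on day 13 and -1.27 ± 0.39 on day 8 (SD, n = 3 each; fold change -1.80, SE 0.17, adjusted p = 4.4e-08).

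Most of this movement was shared by cells with the non-targeting hairpin. In shNTC cells 5354 genes were called between the days (23.9%), 11.6% of all genes higher and 12.3% lower, 139 of them at least 2-fold. Genes called in the same direction in both numbered 3992, which is 58.6% of the calls in shCdk8-1 cells and 74.6% of those in shNTC cells, and 25 were called in opposite directions. Of the 347 genes that changed at least 2-fold in shCdk8-1 cells, 343 differed in the same direction in shNTC cells. Across 22394 genes the 2 changes had Pearson's r = 0.826 and a slope of 1.04. Arrays of the 2 hairpins share reference RNA and probes and have a slide in common. The shNTC arrays of day 8 all lay at position 1 of their slides and those of day 13 at position 2 or 3. A change shared with position therefore cannot be told apart from a change shared with day. Of the 28 highest and lowest genes, 27 were called in the same direction in shNTC cells, the exception being Srgn, and 27 in shCdk8-2 cells, again without Srgn. The 2-cell-like list had 9 of 14 lower in shNTC cells too, with a median of -0.75, and the trophectoderm list 8 of 17 higher, with a median of 0.21.

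The difference between the changes in shCdk8-1 and shNTC cells was tested for each gene. The test called 383 genes (1.71%), 262 more positive (1.17%) and 121 more negative (0.54%) in shCdk8-1 cells. The count was 83 with median centring, 123 with the background model of all spots and 225 with slide as a block. Of the 32 SRF and YAP genes 17 were more positive and 0 more negative, the list's median change being 0.77 in shCdk8-1 cells and 0.19 in shNTC cells. Among genes with a symbol, the 6 most positive differences were in Prss23 (2.05), Acta2 (1.75), Cav1 (1.57), F3 (1.53), Acta1 (1.45) and Actc1 (1.44). Their SEs were 0.08 to 0.13 and their adjusted p ran from 1.0e-11 to 2.8e-07. Acta2 averaged -1.52 ± 0.02 on day 13 and -3.01 ± 0.06 on day 8 in shCdk8-1 cells, against -2.91 ± 0.09 and -2.65 ± 0.07 in shNTC cells (SD, n = 3 each). The 2 lines thus went in opposite directions, and shCdk8-1 cells were the lower on day 8 and the higher on day 13. Cav1, a coat protein of caveolae, did likewise: it averaged -5.38 ± 0.09 on day 13 and -6.41 ± 0.14 on day 8 in shCdk8-1 cells, against -6.63 ± 0.06 and -6.08 ± 0.01 in shNTC cells. A further probe for Cav1 differed by -0.03 between the days in shCdk8-1 cells, and 1 for Prss23, which encodes a secreted protease, by 0.07.

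Actc1 averaged -0.94 ± 0.08 on day 13 and -2.48 ± 0.16 on day 8 in shCdk8-1 cells, against -2.27 ± 0.10 and -2.36 ± 0.03 in shNTC cells, where it was not called (0.09). Acta1, Tagln and Cnn1 rose in both lines, by 2.87, 2.49 and 2.19 in shCdk8-1 cells and by 1.42, 1.21 and 1.43 in shNTC cells, and each of the 3 differences was called (1.45, 1.28 and 0.75). Over the whole SRF and YAP list the array means were -0.90 to -0.80 on day 13 and -1.79 to -1.76 on day 8 in shCdk8-1 cells, and -1.28 to -1.24 on day 13 and -1.57 to -1.50 on day 8 in shNTC cells. The fibroblast markers had 14 of 37 more positive and 0 more negative, 8 and 0 among the 30 not shared with the SRF and YAP list, and their array means in shNTC cells were -3.68 to -3.51 on day 13 and -3.66 to -3.46 on day 8. Their part in the difference was not tested. In the endoderm list 5 of 34 were more positive and 2 more negative, and in the immediate early list 6 and 0 of 36. The primed epiblast list had 1 of 19 more positive and 4 more negative, and with the background model of all spots 0 and 0. Fgf5 (-0.73, adjusted p = 0.034) and Otx2 (-0.71, adjusted p = 0.0017) were called more negative in shCdk8-1 cells. The interferon list had 3 and 0 of 40, the 2-cell-like list 0 and 0 of 14 and the trophectoderm list 3 and 1 of 17. These counts compare with 1.17% more positive and 0.54% more negative over all genes. Krt8 rose by 1.86 in shCdk8-1 and by 0.92 in shNTC cells, and Krt18 by 1.49 and 0.70. Both differences were called (0.94, adjusted p = 3.1e-07, and 0.79, adjusted p = 6.4e-07). Those of Krt7 (0.44), Cldn7 (0.27) and Cdx2 (0.14) were not.

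**Figure D4:**
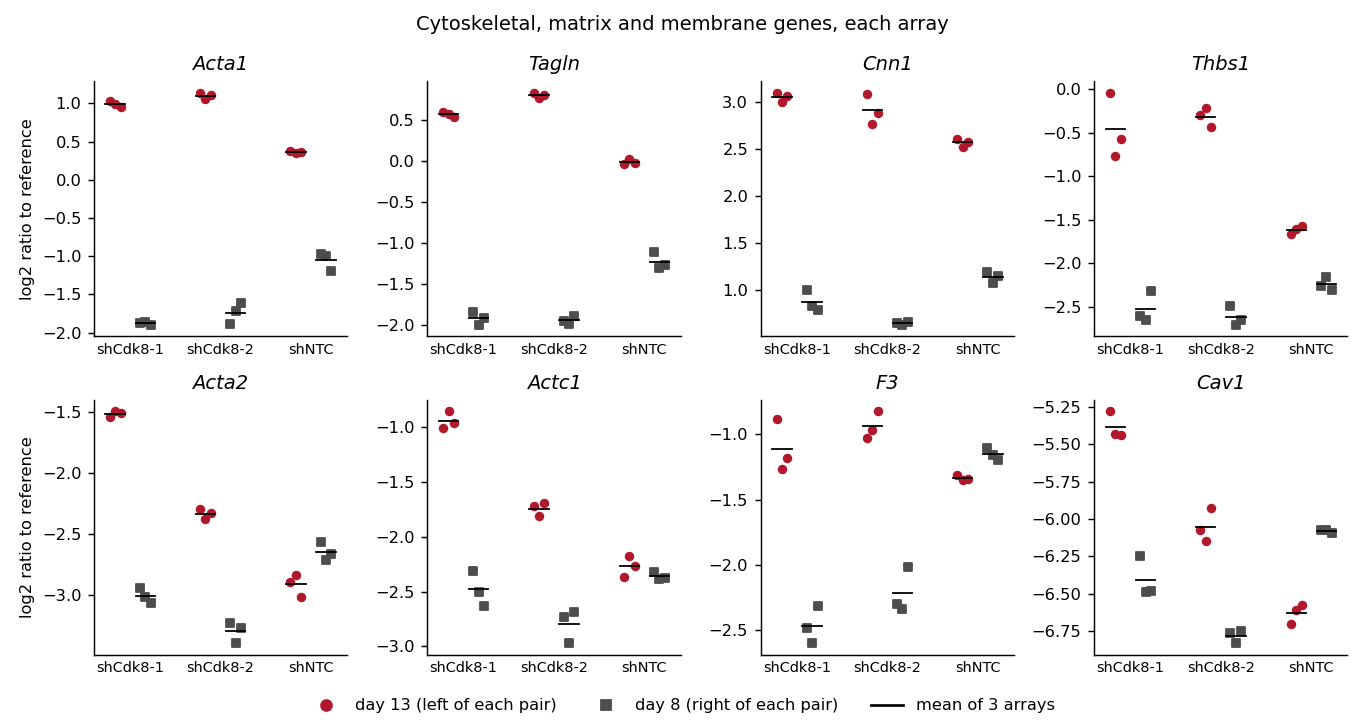
Log2 ratio to the reference RNA on each array for 8 cytoskeletal, matrix and membrane genes; in each panel the pairs are shCdk8-1, shCdk8-2 and shNTC cells, with day 13 (red circles) left of day 8 (grey squares) and a line at the mean of 3 arrays. Acta2 averages -1.52 on day 13 and -3.01 on day 8 in shCdk8-1 cells, and -2.91 on day 13 and -2.65 on day 8 in shNTC cells.

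**Figure D5:**
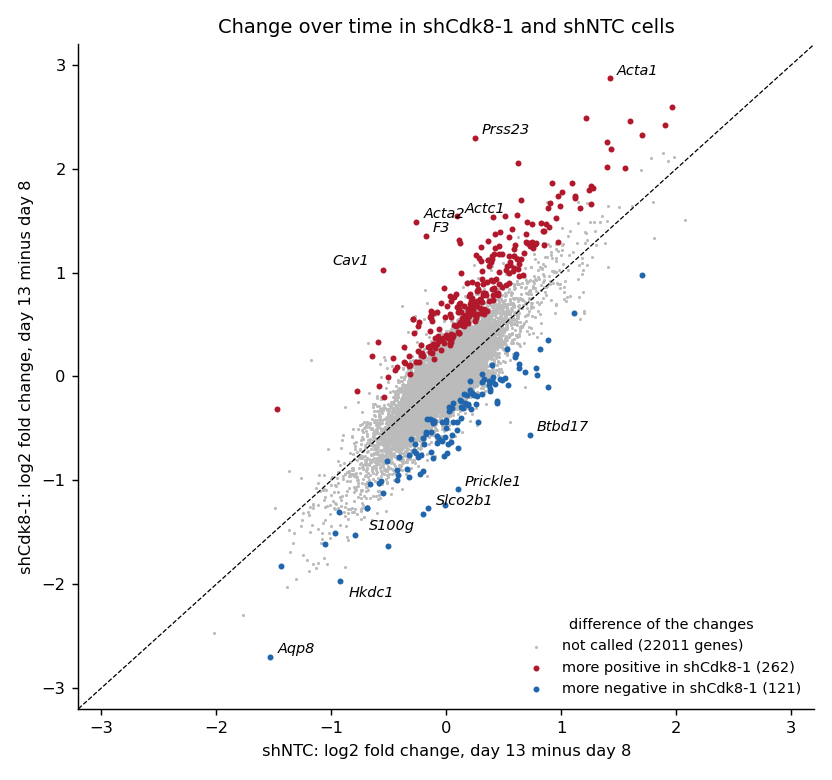
Log2 fold change between day 13 and day 8 in shCdk8-1 cells (vertical axis) against that in shNTC cells (horizontal axis) for 22394 genes; the dashed line marks equal changes. Red points are the 262 genes with a more positive and blue points the 121 with a more negative change in shCdk8-1 cells. Among these genes with a symbol, the 6 with the most extreme fitted differences in each direction are named. S100g and Slco2b1 were not well above background on day 13 in shCdk8-1 cells, so their places are not measured ones.

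On the negative side, Btbd17 (-1.29), Prickle1 (-1.19), Aqp8 (-1.17) and Hkdc1 (-1.04) were named by the same rule among genes measured on both days, with adjusted p from 1.7e-09 to 5.2e-05. Prickle1, a protein of planar cell polarity, averaged 0.44 ± 0.05 on day 13 and 1.53 ± 0.02 on day 8 in shCdk8-1 cells, against -0.15 ± 0.04 and -0.25 ± 0.03 in shNTC cells (SD, n = 3 each), and a further probe gave a change of -0.36 where this one gave -1.09. Its shCdk8-1 level on day 8 thus stood apart from the rest, as it also did from -0.23 ± 0.07 in shCdk8-2 cells on day 8. S100g, a calcium-binding protein, and Slco2b1, an organic anion transporter, were called more negative too, but they were not well above background on any shCdk8-1 array of day 13, so the size of their difference was not measured. Blocking on slide ended the call of the Slco2b1 difference (adjusted p = 0.10). Hkdc1, a hexokinase-like gene, averaged 0.39 ± 0.11 on day 13 and 2.36 ± 0.17 on day 8 in shCdk8-1 cells, against 1.40 ± 0.10 and 2.33 ± 0.11 in shNTC cells. The call was lost for Btbd17 (-0.95, adjusted p = 0.20) and Hkdc1 (-0.74, adjusted p = 0.41) with the background model of all spots.

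The change was also set against that in cells with the other Cdk8 hairpin. Day 13 replicate 3 of shCdk8-2 stood apart, with 48.9% of its spots well above background. In shCdk8-2 cells 7609 genes were called between the days (34%), 15.2% of all genes higher and 18.8% lower; 4522 were called in the same direction as in shCdk8-1 cells, 66.4% of the shCdk8-1 calls and 59.4% of the shCdk8-2 calls, and 81 in the opposite direction. The difference between the changes was called for 922 genes (4.12%), 505 more positive (2.26%) and 417 more negative (1.86%) in shCdk8-1 cells; it was 82 with median centring, 345 with slide as a block and 1152 without shCdk8-2 day 13 replicate 3. In the SRF and YAP list 28 of 32 were called higher and 0 lower in shCdk8-2 cells, with a median of 0.80, and the difference was called for 2 members more positive and 4 more negative. Acta1 rose by 2.84 and Tagln by 2.74 in shCdk8-2 cells, differences of 0.02 (SE 0.09, adjusted p = 0.92) and -0.25 (SE 0.08, adjusted p = 0.085) that were not called. Acta2 rose further in shCdk8-1 cells, by a difference of 0.53 (SE 0.08, adjusted p = 4.7e-04).

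In the endoderm list 15 of 34 members were more negative and 0 more positive in shCdk8-1 than in shCdk8-2 cells, where 1.86% and 2.26% of all genes were. In shCdk8-2 cells 8 members were called lower and 8 higher (median 0.08), where 18.8% and 15.2% of all genes were. The fall was present in shNTC cells, with 16 called lower and 5 higher (median -0.27), where 12.3% and 11.6% of all genes were. Foxa2 (-1.36), Gata6 (-1.32) and Lama1 (-1.31) were all lower on day 13 in shNTC cells. Foxa2 averaged 0.63 ± 0.13 on day 13 and 2.32 ± 0.07 on day 8 in shCdk8-1 cells, against -0.09 ± 0.07 and 0.44 ± 0.06 in shCdk8-2 cells (SD, n = 3 each), a difference of the changes of -1.17 (SE 0.09, adjusted p = 4.0e-08). The 2 hairpins differed in the day 8 level more than on day 13, and the list as a whole had array means of -0.52 to -0.48 in shCdk8-1 cells and -0.90 to -0.86 in shCdk8-2 cells on day 8. In shNTC cells the day 8 means of the list were -0.31 to -0.28. Among the named genes measured on both days, Aqp8 (-1.68) and Id2 (-1.37) were more negative; S100g and Slco2b1 were also called, with no measured size for the reason given above. Id2, an inhibitor of basic helix-loop-helix factors, averaged -1.12 ± 0.05 on day 13 and -1.13 ± 0.05 on day 8 in shCdk8-1 cells and was not called, while it rose by 1.38 in shCdk8-2 and by 0.79 in shNTC cells. Among called genes with a symbol, the most positive were those of Ddit4 (1.44), a stress-induced inhibitor of mTORC1, Ovca2 (1.31), Kcnj4 (1.30) and Mapk8ip1 (1.14). A further probe for Kcnj4 changed by 0.14 between the days in shCdk8-1 cells, where the probe used gave 1.07. In shCdk8-2 cells the day 13 arrays of these 4 genes spread widely, with SDs of 0.55, 0.47, 0.47 and 0.45. For these 4 genes day 8 replicate 3 of shCdk8-1 stood nearest to the day 13 arrays: Ddit4 was at -0.54, -0.64 and -0.61 on day 13 against -2.08, -2.12 and -1.13 on day 8. Without day 8 replicate 2 the Ddit4 difference was 1.27 (adjusted p = 0.062) and without day 8 replicate 1 it was 1.29 (adjusted p = 0.051), both no longer called, as was the Mapk8ip1 difference without day 8 replicate 2 (0.99, adjusted p = 0.051).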

How the data were processed

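Each sample was hybridised to a 2-colour Agilent array, with its own RNA in Cy5 and a universal mouse reference RNA in Cy3 on every array and no dye swap, from 750 ng of labelled cRNA per the labels' protocols. The arrays were read with Feature Extraction 10.7, per the submitters' processing notes. The deposited scanner files give median intensities for spots and for the background around them, a log10 ratio by Feature Extraction, and flags. The value table deposited by the authors gives log2 ratios, which followed the scanner log ratios and were not centred; it was used as an alternative. Per-gene precision is limited by the 3 arrays of each group.

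From the deposited intensities, the background was corrected with normexp (offset 50), the model being fitted without the lowest 0.5% of spots of each channel, and ratios were normalised within arrays by loess, with control and outlier spots at weight 0. Mean intensities had been planned; the files hold medians. Spots of a probe were averaged, a probe was kept where, in some group of the 8, its Cy5 signal was well above background on each of the 3 arrays, and the brightest probe stood for a gene. Symbols came from RefSeq accessions (GRCm38.p6), and 13732 of 22394 genes had one. limma 3.58.1 (R 4.3.3) fitted the means of the 8 groups on all 24 arrays, with moderated two-sided tests, and p-values were adjusted by Benjamini-Hochberg over all genes; a difference between 2 changes over time was tested as an interaction contrast. The procedure was tested on simulated data. A gene not well above background on any array of a group was given no measured size of difference in the report.

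Named genes were the Mediator kinase module, the ES cell markers, the 14 highest and 14 lowest fold changes among calls whose days did not overlap and that kept their direction on both slides holding both days, the 6 highest and 6 lowest differences from shNTC, the 4 highest and 4 lowest from shCdk8-2, and up to 4 called members of each of 30 gene lists; some genes are not reported here. Only genes with a symbol could be named. The genes, lists and rules were chosen with earlier results of these data known. Replicate numbers did not pair the arrays: the deviations of same-numbered arrays of the 2 days correlated at -0.13, -0.05 and -0.13. The 2 pairs that shared a slide correlated at 0.28 and 0.26. Day 13 replicate 1 and day 8 replicate 3, on different slides, correlated at 0.30. Slide was left out of the main fit and used as a block in an alternative. Alternatives covered background, ratio source, centring, filter, probe choice, blocks and leaving out each array.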

Additional observations from a re-analysis of the deposited data

Results flagged for a closer look

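For 20 results the change from day 8 to day 13 in shCdk8-1 cells differed, by limma's test of the interaction, from the change in another line. Against shNTC cells, the differences of the changes were 2.05 for Prss23, 1.75 for Acta2, 1.57 for Cav1, 1.53 for F3, 1.45 for Acta1 and 1.44 for Actc1. They were -1.29 for Btbd17, -1.19 for Prickle1, -1.17 for Aqp8, -1.12 for S100g, -1.11 for Slco2b1 and -1.04 for Hkdc1. Acta2, Cav1 and Btbd17 were called in opposite directions in the 2 lines. Against shCdk8-2 cells, the differences were 1.44 for Ddit4, 1.31 for Ovca2, 1.30 for Kcnj4 and 1.14 for Mapk8ip1, and -1.68 for Aqp8, -1.37 for Id2, -1.34 for Slco2b1 and -1.27 for S100g. S100g and Slco2b1 were not well above background on any shCdk8-1 array of day 13, so their values are fitted ones with no measured size or order. These are the most extreme of the called genes with a symbol, out of 383 and 922 genes called, so their sizes are selected. The first 4 of the shCdk8-2 comparison had adjusted p of 0.0094 to 0.018, and with slide as a block only Ddit4 was still called among them.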

How the results depend on the processing

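Of 3016 single-gene results under the alternatives, 2847 kept direction and call, 147 lost the call, 13 gained it and 9 changed sign. Of the 28 highest and lowest genes, 27 were called in the same direction under every alternative that gave a value, the exception being Srgn; the filter for probes above background on all 24 arrays kept 24 of the 28. Median centring in place of loess gave 3979 genes between the days in shCdk8-1 cells (6814 with loess), 83 differing from shNTC and 82 from shCdk8-2 (383 and 922 with loess). The background model of all spots gave 123 and 448 differences, slide as a block 225 and 345. For shCdk8-2 the difference gave 503 genes with Cy5 alone, 564 with no filter on dim probes and 250 with only the arrays compared. Leaving out single arrays gave 5781 to 6256 genes between the days, 261 to 400 differences from shNTC and 548 to 1175 from shCdk8-2, the 548 without shCdk8-1 day 8 replicate 2. Signs turned for Zfp42 (0.061), Nr0b1 (0.023) and Kit (0.044) with the background model of all spots, for Nr0b1 in Feature Extraction's ratios (0.0059) and the authors' deposited table (0.0070), for Rpl35 with median centring (0.021), and for Esrrb (-0.28), Rps4x (-0.10) and Rps24 (-0.087) with Cy5 alone. The replicate block gave 6812 genes between the days, and 380 and 883 differences; same-numbered arrays were not paired. The causes were not tested. Position on the slide cannot be told apart from day, and the size of a change cannot be measured for genes below background.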

Other observations

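Lipid and stress genes rose in part. Of 39 cholesterol and fatty acid synthesis genes 18 were called higher and 3 lower (median 0.15), where 14.6% and 15.8% of all genes were. Srebf2, the transcription factor of sterol synthesis, rose by 0.64 (0.14 from a further probe), Sc5d by 0.54 and the desaturase gene Scd2 by 0.53. In shNTC cells the list had 13 higher and 3 lower. Among 47 genes of amino acid and unfolded protein stress 16 were called higher and 4 lower (median 0.06), with Ddit4 at 1.18, Atf3 at 0.54 and Chac1 at 0.45, and shNTC cells had 17 and 5. In shCdk8-2 cells 5 were called higher and 19 lower (median -0.13), where 15.2% and 18.8% of all genes were. The change of 11 was more positive and of 1 more negative in shCdk8-1 than in shCdk8-2 cells, against 2.26% and 1.86% of all genes. The p53 and CDK inhibitor list had 9 of 32 higher and 4 lower, with Gadd45b at 1.63 (0.93 from a further probe), Perp at 1.39 and Cdkn2b at 0.63, while Cdkn1c fell by 0.57.

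Lists of growth and chromatin genes had few members called higher. The shares over all genes were 14.6% higher and 15.8% lower. MYC targets had 10 of 37 lower and 1 higher (median -0.09), with the nucleolar genes Nolc1 (-0.61) and Mybbp1a (-0.46) among them. Of 38 cell cycle genes 5 were called lower and 0 higher, a share lower that is below the 15.8% of all genes, with Top2a at -0.45 and Cenpe at -0.36. Histone genes had 6 of 20 lower and 0 higher, and DNA methylation and Polycomb genes 11 of 29 lower and 3 higher, with the dioxygenase gene Tet2 and the Polycomb cofactor gene Jarid2 both at -0.55. With median centring most of these calls were lost: MYC targets had 1 lower and 0 higher (median 0.07), cell cycle genes 0 and 0, histone genes 2 lower and 0 higher, and DNA methylation and Polycomb genes 5 lower and 1 higher. Cytosolic ribosomal proteins had 4 of 46 higher and 2 lower, and oxidative phosphorylation 0 of 36 higher and 1 lower, shares below those of all genes. Core Mediator had 1 of 23 higher and 3 lower, with Med1, the subunit that binds nuclear receptors, at -0.52, where further probes gave -0.30 and 0.10. The hypoxia and glycolysis list had 7 of 34 higher and 8 lower, heat shock 4 and 2 of 19, TGF-beta, NODAL and BMP 8 and 6 of 39, and blood and endothelial markers 0 and 4 of 12. Of 26 HOX genes 6 were higher and 2 lower, with Hoxc9 at 1.13.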
